A study of Homo sapiens with 2 samples.

Results

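The miR-143/miR-145 and miR-199/miR-214 miRNAs are small RNAs best known from stromal and smooth muscle cells. They were taken by name from 2 libraries of small RNA that an affinity resin retained from the lysate of MDA231 cells, a triple-negative breast cancer line. There are 9 such names among the 2588 mature miRNA names listed: hsa-miR-143-3p, hsa-miR-143-5p, hsa-miR-145-5p, hsa-miR-145-3p, hsa-miR-199a-5p, hsa-miR-199a-3p, hsa-miR-199b-3p, hsa-miR-199b-5p and hsa-miR-214-3p, written below without the species prefix. The names miR-199a-3p and miR-199b-3p have the same sequence and the same counts in each library, so they were counted once, as miR-199a/b-3p, which leaves 8 species. The bait library came from resin that carried the long non-coding RNA MACC1-AS1 with MS2 hairpins, transcribed in vitro and held on amylose through MS2 coat protein joined to maltose-binding protein. For the no-bait library no RNA was put on the resin, and both libraries used the parental cell line. The control lacked an unrelated RNA and the MS2 hairpins, so the effects of MACC1-AS1, of the hairpins and of any RNA on the resin cannot be told apart. Each group is 1 library, with 1047269 counts with bait and 269716 without, so no difference below has a replicate check, no p-value was computed, and every interval covers counting error only.

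A miRNA is cut as a mature strand of about its final length from either arm of a hairpin, the 5p or the 3p arm. It guides Argonaute proteins to RNAs that pair with its seed, the stretch from base 2 to base 8. The miR-143 and miR-145 hairpins are transcribed together and are abundant in smooth muscle and fibroblasts, where they act in contractile differentiation. They are commonly low in epithelial tumour cells. The miR-199a-2 and miR-214 hairpins are processed from the mesenchymal transcript DNM3OS, and further miR-199 copies lie opposite other dynamin genes. Known targets include the pluripotency factors SOX2 and KLF4 for miR-145-5p, the kinase gene MTOR for miR-199a-3p, and the histone methyltransferase gene EZH2 for miR-214-3p.

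The mature sequences of RefSeq (GRCh38) matched 8 of the 9 names, all except miR-199b-5p. They are shown because the seeds separate these species into groups and are the letters searched for in the bait transcript. Each is written 5′ to 3′ with the seed, bases 2 to 8, in capitals.
miR-143-3p: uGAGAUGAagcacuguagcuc
miR-143-5p: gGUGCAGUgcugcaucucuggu
miR-145-5p: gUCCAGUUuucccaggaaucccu
miR-145-3p: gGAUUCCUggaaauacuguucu
miR-199a-5p: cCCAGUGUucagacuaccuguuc
miR-199a-3p and miR-199b-3p: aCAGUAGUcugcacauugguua
miR-214-3p: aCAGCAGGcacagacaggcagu
These sequences hold 7 distinct seeds. miR-199a-3p and miR-199b-3p share theirs. The seeds of miR-145-5p and miR-199a-5p have a run of 5 letters in common, CCAGU, although the miRNAs come from different loci. These strands are 21 to 23 bases long, with 40.9% to 59.1% G and C, and levels were scaled to the library total without a length correction. Whether different strands were captured equally well in the libraries was not tested.

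The hairpins lie at 4 places in the genome (GRCh38, where RefSeq and GENCODE version 29 give the same ends). MIR143 (chromosome 5, 149428918 to 149429023, plus strand) overlaps an exon of the long non-coding gene CARMN. MIR145 (149430646 to 149430733, plus strand) lies 1622 bases downstream, in an intron of CARMN. MIR214 (chromosome 1, 172138798 to 172138907, minus strand) and MIR199A2 (172144535 to 172144644) are 5627 bases apart. Both overlap exons of DNM3OS and lie opposite an intron of DNM3. MIR199A1 (chromosome 19, 10817426 to 10817496, minus strand) lies opposite an intron of DNM2, and MIR199B (chromosome 9, 128244721 to 128244830, minus strand) opposite an intron of DNM1. The 5p arm of miR-199a could come from MIR199A1 or MIR199A2, and the 3p arm from these or MIR199B, so counts of miR-199a/b-3p cannot be assigned to a locus. Whether reads of this shared sequence were listed in full under both names or divided between them is not stated. If they were divided, its level in both libraries, its rank and its arm share are understated here, while its bait over no-bait ratio is not affected.

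The 8 species were a small part of both libraries. Together they had 509 counts with bait, 0.0486% of the library (exact Clopper-Pearson 95% interval 0.0445% to 0.0530%), against 219 counts without bait, 0.0812% (0.0708% to 0.0927%). The bait over no-bait ratio of these shares was 0.599, with an exact conditional binomial 95% interval of 0.51 to 0.705. Such a ratio compares shares, so a gain of other miRNAs with bait lowers it as a loss of these would. The counts were concentrated in miR-143-3p, miR-199a/b-3p and miR-199a-5p, which held 95.3% of the group with bait and 94.98% without. The other 5 species had at most 9 counts with bait and at most 3 without.

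miR-143-3p, the guide strand of the miR-143 hairpin, had 251 counts or 240 RPM (counts per 1000000 counts of the library) with bait (exact Poisson 95% interval 211 to 271 RPM), against 82 counts or 304 RPM without bait (242 to 377 RPM). By the counts as listed, it was the most abundant of the 8 species with bait and came after miR-199a/b-3p without. The intervals of the libraries overlap. Among all names it ranked 89 with bait and 80 without. miR-199a/b-3p, which is known to target MTOR and MET, had 176 counts or 168 RPM with bait (144 to 195 RPM), against 92 counts or 341 RPM without bait (275 to 418 RPM). These intervals do not overlap, and the level was lower with bait. miR-199a-5p, the opposite arm, had 58 counts or 55.4 RPM with bait (42.05 to 71.6 RPM), against 34 counts or 126 RPM without bait (87.3 to 176 RPM). Its intervals do not overlap either.

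**Figure D1:**
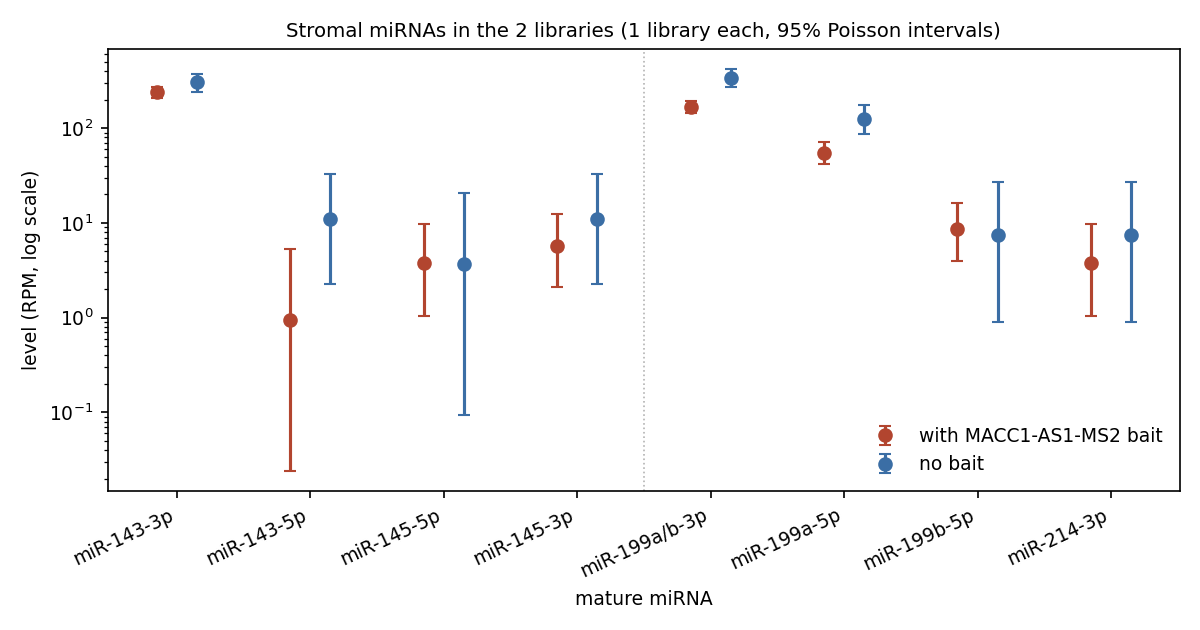
Level of each of the 8 species in RPM (log scale) in the bait library (red, left of each pair) and the no-bait library (blue), 1 library each, with exact 95% Poisson intervals. The intervals of miR-199a/b-3p and miR-199a-5p do not overlap between libraries, and those of the other 6 species do.

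Among the 3 most abundant species the order of the levels as listed differed between the libraries. With bait, miR-143-3p stood above miR-199a/b-3p, with intervals that do not overlap. Without bait miR-199a/b-3p stood above miR-143-3p, with intervals that do. If the reads of miR-199a/b-3p were divided between both of its names, its level is understated and this difference in order need not hold. miR-199a-5p came next in both, apart from its neighbours. Below it, the intervals of the 5 rarer species overlap within each library, so their order cannot be resolved at this depth.

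The rarer strands were near the limit of detection, since 1 count corresponds to 0.955 RPM in the bait library and 3.71 RPM in the no-bait library. miR-145-5p, the guide strand of its hairpin and a regulator of smooth muscle fate, had 4 counts in the bait library (3.82 RPM, 1.04 to 9.78) and 1 in the no-bait library (3.71 RPM, 0.0939 to 20.7). Its ratio of 1.03 has an interval of 0.102 to 50.7. miR-145-3p, which was recalled from published work as a partner of MACC1-AS1 that may rest partly on these libraries, had 6 counts with bait (5.73 RPM, 2.10 to 12.5) and 3 without (11.1 RPM, 2.29 to 32.5). Its ratio of 0.515 (0.11 to 3.18) spans a decrease and an increase, so an association with the bait was not detectable at this depth. miR-214-3p had 4 counts with bait (3.82 RPM, 1.04 to 9.78) and 2 without (7.42 RPM, 0.898 to 26.8), a ratio of 0.515 (0.0738 to 5.69). miR-199b-5p had 9 counts with bait (8.59 RPM, 3.93 to 16.3) and 2 without (7.42 RPM, 0.898 to 26.8), a ratio of 1.16 (0.24 to 11.02). miR-143-5p had 1 count with bait (0.955 RPM, 0.0242 to 5.32) and 3 without (11.1 RPM, 2.29 to 32.5), and no ratio was formed because neither library exceeded 3 counts. None of these 5 species reached the 30 counts, summed over both libraries, that were asked before a miRNA was tested.

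Of the 3 species with at least 30 counts, 2 were lower with bait and 0 higher. The 2 lower ones are opposite arms of miR-199 hairpins, so they may not be separate observations. A miRNA was called lower at a ratio of at most 0.5, and higher at a ratio of at least 2, where the interval excluded 1. Among all 230 miRNAs tested this way 26.5% were called lower (61) and 39.6% higher (91), so with 3 species tested the count of 2 has little weight. miR-199a-5p had a ratio of 0.439 (0.283 to 0.692), or 2.28-fold lower with bait. miR-199a/b-3p had a ratio of 0.493 (0.381 to 0.641), or 2.03-fold lower, just inside the threshold. The ratio of miR-143-3p was 0.788, and its interval of 0.612 to 1.02 includes 1, so it passed neither rule. Its direction was not fixed, at 1.06 (0.82 to 1.37) with DESeq2 size factors and 0.721 (0.56 to 0.937) with totals that omit the 5 most abundant miRNAs. Both calls of the miR-199 strands depended on how the libraries were scaled. With DESeq2 size factors the ratio of miR-199a-5p was 0.589 (0.379 to 0.927) and that of miR-199a/b-3p 0.66 (0.51 to 0.859), and neither was called, although both intervals stayed below 1. With edgeR TMM factors miR-199a/b-3p was at 0.548 (0.424 to 0.713), outside the threshold.

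**Figure D2:**
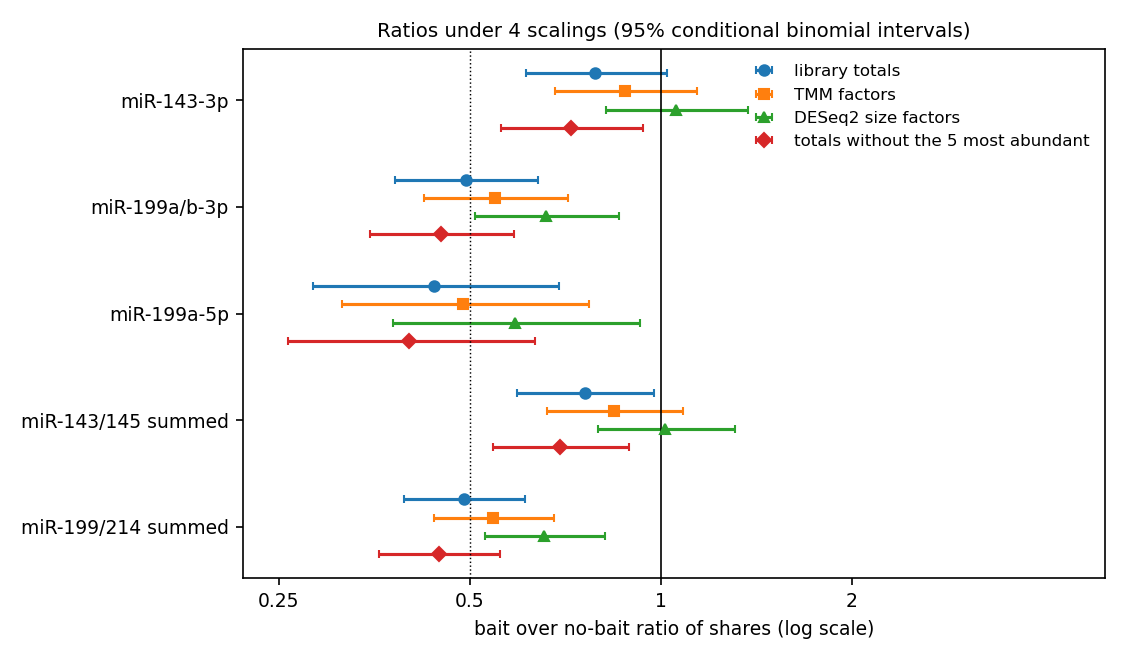
Bait over no-bait ratio (log scale) of the 3 tested species and of both summed clusters under 4 scalings, with exact conditional binomial 95% intervals. The solid line marks a ratio of 1 and the dotted line the threshold of 0.5. The miR-199 ratios lie between 0.402 and 0.66 and those of miR-143-3p between 0.721 and 1.06.

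A rank among the other miRNAs, or a distance from their median, does not depend on the scaling, but it depends on the count minimum. With library totals, the median log2 ratio of the 230 tested miRNAs was 0.56, with quartiles of -1.09 and 1.87. That of the 3 tested species was -1.02. Relative to the median of all tested miRNAs, the log2 ratio of miR-143-3p was -0.91, that of miR-199a/b-3p -1.58 and that of miR-199a-5p -1.75. The median of all miRNAs was 0.312 at a minimum of 10 counts and 0.043 with no count filter, where these distances are smaller. Of all tested miRNAs, 37.4% had a ratio below that of miR-143-3p, 26.5% below that of miR-199a/b-3p and 23.0% below that of miR-199a-5p. None of the 3 was therefore near the extremes of the libraries. With library totals, a ratio under 1 was found for 39.6% of all tested miRNAs and for each of these 3 species. Unlike the ranks, this share depends on the scaling, and miR-143-3p was at 1.06 with DESeq2 size factors. The other 2 species are arms of miR-199 hairpins and may not be separate observations.

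**Figure D3:**
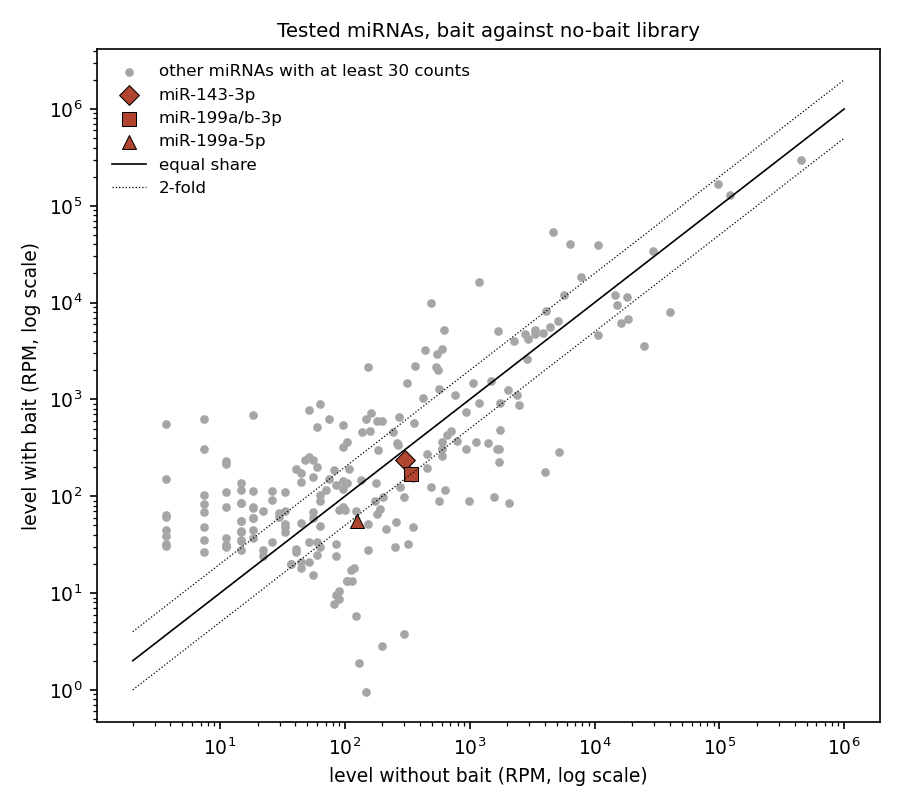
Level with bait against level without bait (RPM, both axes log scale) for tested miRNAs, with the 3 tested stromal species in red. The solid line marks equal shares and the dotted lines a 2-fold difference; 8 other miRNAs with 0 counts in 1 library are not drawn. miR-143-3p lies between the lines, and both miR-199 strands lie at the lower dotted line.

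Summed by cluster, the miR-143/miR-145 arms had 262 counts with bait (250.2 RPM) and 89 without (330.0 RPM), a ratio of 0.758 (0.594 to 0.976) that passed neither rule. The sum is mostly miR-143-3p, and with DESeq2 size factors its ratio was 1.02 (0.796 to 1.31), on the other side of 1. Without miR-143-3p the rest of the sum had a ratio of 0.405 (0.143 to 1.23), whose interval includes 1. The miR-199/miR-214 arms had 247 counts with bait (236 RPM) and 130 without (482 RPM). miR-214-3p gave only 4 of these counts with bait and 2 without, so this sum is mostly miR-199. It takes in miR-199 strands that may come from MIR199A1 or MIR199B, on other chromosomes than MIR214. The summed ratio was 0.489 (0.394 to 0.61), or 2.04-fold lower with bait. This call ended with edgeR TMM factors (0.545) and with DESeq2 size factors (0.656).

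Ratios between species within a library are free of the scaling. There were 1.43 counts of miR-143-3p for each count of miR-199a/b-3p with bait, against 0.891 without, so this proportion was 1.60 times higher with bait (exact conditional 95% interval 1.11 to 2.32). For miR-143-3p against miR-199a-5p the proportions were 4.33 with bait and 2.41 without, 1.79 times higher (1.06 to 3.01). For miR-199a-5p against miR-199a/b-3p they were 0.33 with bait and 0.37 without, and the interval of their ratio (0.531 to 1.51) includes 1. Widened to 98.3% for the 3 pairs, the interval of miR-143-3p against miR-199a/b-3p was 1.02 to 2.51 and that against miR-199a-5p was 0.947 to 3.35, which includes 1. The difference between miR-143-3p and the miR-199 strands was thus close to the limit of counting error.

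The balance of the arms was similar in both libraries where counts allowed a comparison. Of the reads from the miR-199 hairpins, 72.4% were from the 3p arm with bait (176 of 243, exact Clopper-Pearson 95% interval 66.3% to 77.95%), against 71.9% without (92 of 128, 63.3% to 79.5%). For miR-143 the 3p arm held 99.6% with bait (251 of 252, 97.8% to 99.99%), against 96.5% without (82 of 85, 90.03% to 99.3%). The miR-143 hairpin therefore gave nearly all of its reads from 1 arm, and the miR-199 hairpins gave reads from both. The miR-145 hairpin had 10 counts with bait, 6 of them 3p, and 4 without, 3 of them 3p. Both libraries thus held more counts of the 3p than of the 5p strand of miR-145, although the 5p strand is known as the guide, but the intervals for the 3p share (26.2% to 87.8% with bait, 19.4% to 99.4% without) leave the balance unresolved. The other arm of the miR-214 hairpin, miR-214-5p, had 2 counts in each library beside the 4 and 2 counts of miR-214-3p.

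Other miRNAs with the same seeds were not seen. miR-4770 and miR-6088 share the seed of miR-143-3p, miR-3129-5p that of miR-199a/b-3p, and miR-761 and miR-3619-5p that of miR-214-3p. All 5 had 0 counts in both libraries. The floor of 3 counts that stood in for a count of 0 in ratios is 2.87 RPM with bait and 11.1 RPM without. It is a setting and not the bound of a Poisson interval. Counts under these 3 seeds therefore came from the stromal names alone, as far as this depth shows.

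The miRNAs nearest to the tested species in level over the 2 libraries were found by distance on the log2 RPM scale. miR-361-3p (156 RPM with bait, 348 RPM without; distance 0.115) and let-7d-5p (187 and 326 RPM; 0.168) lay nearest to miR-199a/b-3p, followed by miR-1307-3p (0.47). let-7d-5p (0.371), miR-1180-3p (0.523) and miR-140-3p (0.608) were nearest to miR-143-3p, and miR-4301 (0.289), miR-3615 (0.354) and miR-330-3p (0.498) to miR-199a-5p. With 2 libraries this likeness is a matter of level and ratio only.

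The annotated MACC1-AS1 transcript was searched for letters that pair with these seeds. The gene lies on chromosome 7 from 20141916 to 20153531 (plus strand, GRCh38), and its annotated transcript has 639 bases in 4 exons. The isoform used as bait was not analysed here. Matches of 2 kinds were counted on the transcript strand alone: the reverse complement of bases 2 to 8, and that of bases 2 to 7 followed by A. Matches were found for miR-145-5p, miR-143-3p and miR-199a-5p, all in exon 4. miR-199b-5p was not searched, since no sequence was matched to its name, so whether it has a match is not known here. They are printed with the matching letters in capitals and flanking transcript sequence in lower case, and the coordinates are those of the whole printed stretch.
miR-145-5p, match at bases 393 to 400 of the transcript, printed stretch chr7:20153269-20153296: uuuguccuguucacccAACUGGAAuggu
miR-143-3p, match at bases 495 to 501, printed stretch chr7:20153371-20153397: uucugcucucaccaagUCAUCUCuaau
miR-145-5p and miR-199a-5p, matches within bases 591 to 598, printed stretch chr7:20153467-20153494: uuuuacaugugcccuuCACUGGAAuauu
The first is a match to bases 2 to 8 of miR-145-5p followed by A (AACUGGAA). The last holds the shorter match of miR-145-5p (ACUGGAA) and that of miR-199a-5p (CACUGGA), which overlap there because the seeds share letters.

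**Figure D4:**
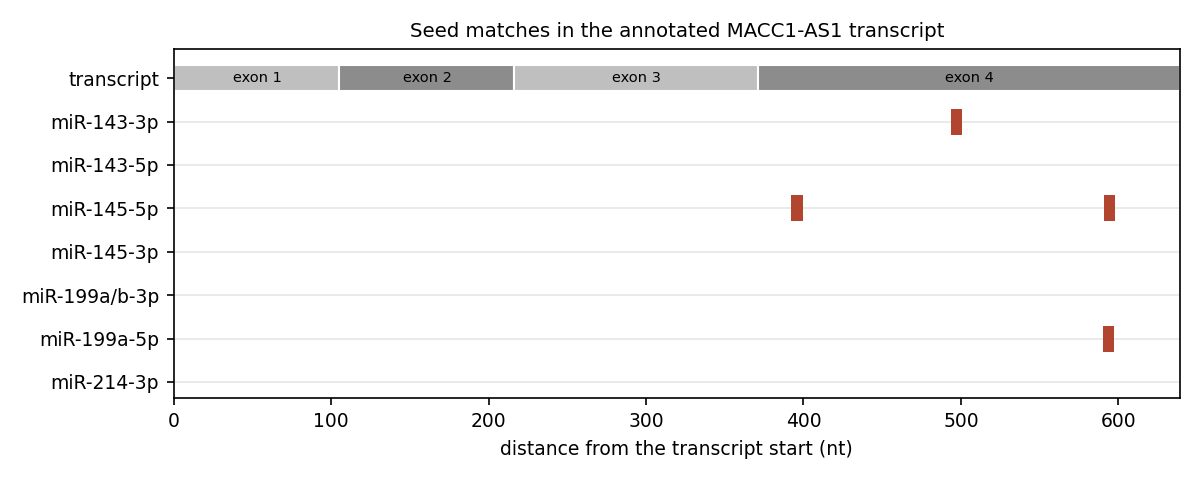
Seed matches of the species with a printed sequence along the annotated MACC1-AS1 transcript of 639 nt, by distance from the transcript start, with the exons in grey. The matches of miR-143-3p, miR-145-5p and miR-199a-5p lie in exon 4, and the other 4 rows are empty.

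Such matches are common. Among 4157 annotated long non-coding transcripts within 10% of the length of MACC1-AS1, AACUGGAA was present in 2.65%, UCAUCUC, the match of miR-143-3p, in 7.12%, CACUGGA in 8.54% and ACUGGAA in 8.59%. No match of either kind was found for miR-145-3p (AGGAAUC, in 4.74% of those transcripts, or GGAAUCA, in 5.58%). The same holds for miR-199a/b-3p (ACUACUG, 3.10%, or CUACUGA, 4.50%), miR-214-3p (CCUGCUG, 10.9%, or CUGCUGA, 9.89%) and miR-143-5p (ACUGCAC, 5.80%, or CUGCACA, 6.47%). Set beside the counts, the species with the longest match, miR-145-5p, was too rare to test. Of the tested species, miR-199a-5p has a match and was lower with bait, miR-143-3p has a match and passed neither rule, and miR-199a/b-3p has none and was lower. A match is only a description of letters, and no match says nothing beyond this transcript.

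Markers of other cell types were read in the same libraries to place the stromal names. In a list of 12 other mesenchymal and vascular-wall miRNAs, 8 were tested, of which 2 were higher and 3 lower with bait, with a median log2 ratio of -0.07. Over all 230 tested miRNAs 39.6% were higher and 26.5% lower, with a median of 0.56. The higher names of the list were miR-125b-5p (53090 RPM with bait, 4672 RPM without, ratio 11.4, 10.75 to 12.03) and miR-218-5p (779 and 51.9 RPM, ratio 15.01, 8.9 to 27.6). Its lower names included miR-10b-5p (74.5 and 193 RPM; ratio 0.386, 0.269 to 0.56) and miR-127-3p (65.9 and 182 RPM; ratio 0.363, 0.248 to 0.534). The other, miR-409-3p, had 19 and 12 counts. The remaining tested names passed neither rule: miR-22-3p at 1.39 (1.22 to 1.58), miR-152-3p at 1.89 (1.46 to 2.49) and miR-100-5p. The list went in both directions. Its sum was 352300 RPM with bait and 459300 RPM without. miR-100-5p (296400 RPM with bait, 452800 RPM without; ratio 0.655) held most of it in both libraries, followed by miR-125b-5p. miR-490-3p and miR-497-5p, which are also known from smooth muscle and fibroblasts, were at 0 in both libraries.

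Of the endothelial markers, miR-126-3p was 3.31-fold higher with bait (2.47 to 4.52), and the list summed to 612 RPM with bait and 185 RPM without. The epithelial list had 6 names in the table, of which miR-141-3p and miR-205-5p were at 0 in both libraries, and it summed to 181 RPM with bait and 111 RPM without. The blood cell list of 7 summed to 432 RPM with bait and 864 RPM without, with miR-144-3p, miR-150-5p and miR-223-3p at 0 in both libraries. Most of it was miR-486-5p, which was called lower with bait (369 and 793 RPM; ratio 0.465, 0.392 to 0.552). miR-142-5p had 42.97 RPM with bait and 33.4 RPM without, a ratio of 1.29 (0.622 to 3.00) that passed neither rule, and miR-142-3p had 17 counts and 0 counts. The striated muscle list had 6 names in the table and summed to 21.01 RPM with bait and 48.2 RPM without, with miR-208a-3p at 0 in both. No striated muscle name reached 30 counts, and the 1 epithelial name that did, miR-200b-3p, passed neither rule at 1.32 (0.879 to 2.06). The sums of these lists were not tested. Both libraries hold RNA that the resin retained from the lysate of a single cell line, so these lists do not measure numbers of cells. Whether any of the stromal counts came from other cells was not tested. All 6 markers of basal breast lines were seen, although miR-155-5p (6 counts in each library) and miR-31-5p (9 with bait, 4 without) were too rare to test. The list summed to 314000 RPM with bait and 499700 RPM without, mostly in miR-100-5p, which is also in the mesenchymal list. Of the 4 tested, 0 were higher and 1 was lower, with a median log2 ratio of -0.13. The lower one was miR-222-3p (8028 RPM with bait, 40200 RPM without), and miR-221-3p (5596 and 4405 RPM) passed neither rule at 1.27.

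In the authors' deposited table, none of the 9 stromal names had a p-value under 0.05. Among these 9 names alone, the lowest p-value there was 0.0942, for miR-143-5p with its 1 and 3 counts. Those of miR-199a-5p and miR-199a/b-3p were 0.167 and 0.213. The test behind that table is not named in the sources used here, and with 1 library per group it compares these libraries, not the conditions. Its log2 fold changes for the 9 names lay within 0.00702 of those from the counts, from which they were made.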

How the data were processed

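Small RNA retained on the resin was sequenced in 1 library with bait and 1 without. The authors deposited a whole-number count per mature miRNA and an RPM, which equals the count per 1000000 of the library's summed counts within 0.00994 RPM. BWA is named without a version in the submitters' processing notes, with the miRNA reference, build and treatment of reads matching several names not given in the sources used here. Both miR-199 3p names enter the totals. The authors' deposited table adds a log2 fold change and a p-value.

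Here counts were divided by library totals of 1047269 and 269716. Ratios have exact conditional binomial 95% intervals, shares Clopper-Pearson intervals and levels Poisson intervals (scipy 1.17.1), which cover counting error only, since amplified reads without molecular identifiers are not independent molecules. A ratio with 0 counts in 1 library used a floor of 3 counts, and none was formed where neither library exceeded 3. The ratio procedure was tested on simulated data. Alternatives were edgeR 4.0.16 TMM factors, DESeq2 1.42.0 size factors, totals without the 5 most abundant miRNAs, other count minimums, a stricter interval rule, the deposited RPM, both miR-199 3p names, and the miR-143/miR-145 sum without miR-143-3p. Named miRNAs are all members, those sharing a seed, miR-214-5p, the 3 nearest in level to each tested member, and per marker list up to 3 with the highest counts. miR-10b-5p, miR-127-3p, miR-152-3p, miR-218-5p, miR-409-3p, miR-31-5p, miR-155-5p and markers at 0 were chosen after their values were seen. So were the pairs compared within a library. Members and lists were chosen with earlier results of these data known.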

Additional observations from a re-analysis of the deposited data

How the results depend on the processing

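The number of stromal species called lower was 2 of 3 with library totals, 1 with edgeR TMM factors, 0 with DESeq2 size factors, 1 of 2 at a minimum of 100 counts, and 0 where the interval itself had to lie beyond 2-fold. The minimum of 100 counts dropped miR-199a-5p. The summed miR-199/miR-214 ratio was 0.545 with TMM factors and 0.656 with DESeq2 size factors, both outside the threshold of 0.5. The moves with TMM and DESeq2 factors follow from the changed factor, which moved the median log2 ratio of the tested miRNAs by 0.15 (TMM), 0.42 (DESeq2) and -0.13 (the 5 most abundant left out). Over all miRNAs, at least 100 counts gave 59 higher and 36 lower, and no count filter gave 99 lower of 408. The split of calls was 59.9% higher with library totals and 72.2% with DESeq2 size factors. The other 33 alternative values of the main counts and summed ratios kept their call, or stayed within 1.5 times as counts. The ratio of miR-143-5p has too few counts for any setting. No paired analysis was possible because each group has 1 library, and for the same reason no replicate could be left out. Depth without bait limits the rarer species: at 1 to 3 counts their intervals span increases and decreases.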
